A study of Mus musculus with 4 samples.

Results

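The genes examined here encode the methyltransferase MLL1 (Kmt2a), its cofactors menin (Men1), LEDGF (Psip1) and Wdr5, the H3K79 methyltransferase Dot1l with its partners Mllt10, Mllt3 and Mllt1, and the elongation scaffolds Aff1 and Aff4. These 10 genes were listed by symbol, and all 10 were found among 24016 gene symbols, with 21 of 33018 annotated transcripts. Each gene was represented by its transcript with the most counts over all libraries. RNA was sequenced from hematopoietic stem cells of C57BL/6 mouse bone marrow at 4 months of age, sorted as lineage-negative, Sca-1 and c-Kit positive, CD34 and Flt3 negative and CD150 positive. There were 2 libraries from wild-type (WT) mice and 2 from NHD13 mice. The labels do not say whether they came from separate animals, so all errors and tests refer to the spread of these libraries, which may be technical. NHD13 mice carry a transgene for the human NUP98-HOXD13 fusion, known to be driven by Vav regulatory elements that are active across blood cells, and are a model of myelodysplastic syndrome.

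MLL1 methylates lysine 4 of histone H3 at active promoters, and menin joins it to LEDGF, which holds it on chromatin. Dot1l methylates lysine 79 of histone H3 along transcribed genes. Mllt3 (AF9) and Mllt1 (ENL) are related readers of acetylated histones that bind either Dot1l or the AFF scaffolds of the super elongation complex, which releases paused RNA polymerase II. Many of these genes are known as fusion partners of MLL1 in leukemia, Mllt3 is known as a regulator that maintains human stem cells in culture, and HOXA genes and MEIS1 are known targets of the complexes.

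Mllt3 was the only one of the 10 genes called in the comparison of NHD13 with WT, and it was lower. Its level was 509 and 548 CPM (counts scaled to a common library size) in WT and 154 and 132 CPM in NHD13. Both NHD13 libraries lay far below both WT libraries, at 143 ± 15.7 against 528 ± 27.2 CPM (SD, n = 2). The log2 fold change was -1.89 ± 0.12 (SE), 3.71-fold lower, with an adjusted p of 0.00719 by edgeR's quasi-likelihood test. Over all 14853 genes tested, 636 passed an adjusted p of 0.05, or 4.28 percent, with 2.07 percent called higher and 2.22 percent called lower. All 10 genes passed the filter on low counts, and their median log2 fold change was 0.04, against 0.0013 over all genes tested. Because the measurement is on bulk RNA, fewer cells that express Mllt3 and less Mllt3 RNA per cell cannot be told apart.

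Mllt3 lies on chromosome 4 (chr4:87769925-88033364, minus strand, GRCm38, GENCODE M21). The count tables hold 3 of its transcripts. The long transcript NM_027326 has 11 exons and encodes 569 residues, with the YEATS domain that reads acetylated lysine near the start of the protein. The short transcripts NM_029931 and NM_001286158 start inside the gene, 227041 and 227050 bases downstream of the long start, and encode 162 and 138 residues. Their coding bases all lie within those of the long transcript, at the end where the Dot1l and AFF binding region is known to lie. The 5 exons of the long transcript that lie before the internal start hold 1397 bases, and none of these is in the short transcripts.

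**Figure D1:**
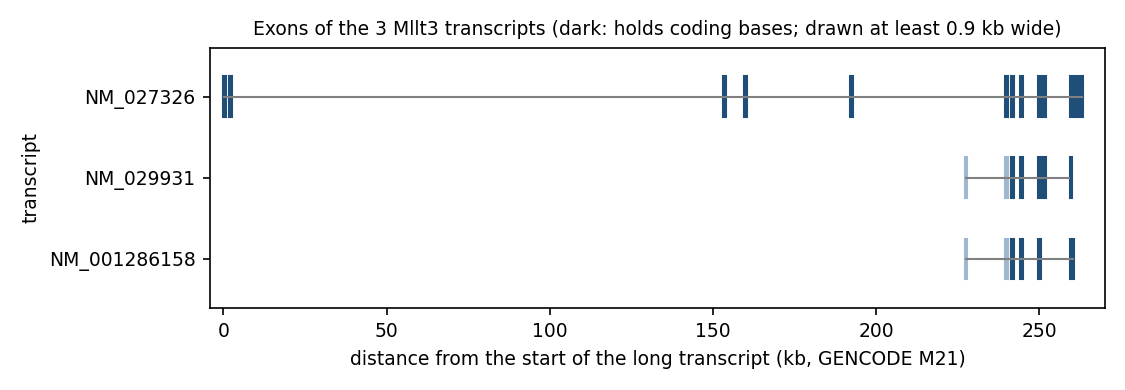
Exons of the 3 Mllt3 transcripts against distance from the start of the long transcript in kb, from GENCODE M21, with exons that hold coding bases in dark blue and other exons in light blue. The 2 short transcripts begin 227 kb into the gene, after the first 5 exons of the long one.

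The 250 bases before each of the 2 starts annotated in RefSeq are shown. For the long transcript the RefSeq start lies upstream of the GENCODE start at 88033364. Where transcription begins in these cells was not measured. CpG dinucleotides are in capitals. The sequences are from RefSeq on GRCm38.p6, minus strand, at chr4:88033408-88033657 for the long transcript and chr4:87806324-87806573 for the internal start.
Mllt3 long start: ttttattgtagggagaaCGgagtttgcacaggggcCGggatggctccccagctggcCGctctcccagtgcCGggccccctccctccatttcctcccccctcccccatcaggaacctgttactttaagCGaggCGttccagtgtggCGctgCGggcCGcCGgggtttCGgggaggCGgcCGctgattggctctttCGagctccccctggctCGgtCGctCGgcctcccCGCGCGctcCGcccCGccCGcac
Mllt3 internal start: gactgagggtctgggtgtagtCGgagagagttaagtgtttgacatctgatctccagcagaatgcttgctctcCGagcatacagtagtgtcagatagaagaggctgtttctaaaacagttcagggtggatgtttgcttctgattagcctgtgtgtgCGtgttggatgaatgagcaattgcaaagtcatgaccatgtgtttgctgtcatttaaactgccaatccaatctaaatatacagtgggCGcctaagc
The window at the long start held 23 CpG and was 69.2 percent G and C, and 88.0 percent of 32851 RefSeq promoter windows of this length held at most as many CpG. The window at the internal start held 4 CpG and was 45.2 percent G and C, and 44.4 percent of windows held at most as many. Motifs of 5 kinds of factor were searched on both strands. The Sp1 motif GGGCGG occurred 2 times at the long start, in neighbouring matches that share 1 base, and was present in 32.7 percent of all windows. The Meis motif TGACAG occurred 1 time at the internal start and was present in 15.9 percent of all windows. The GATA motif AGATAA, held by 9.99 percent of windows, had no match in either. The Runx motif TGTGGT, held by 14 percent of windows, had none. The joint Hox and Pbx motif TGATTNAT, held by 2.82 percent of windows, had none.

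All 3 transcripts of Mllt3 were lower in NHD13. For the long transcript, 22149 and 20012 counts were recorded in WT, against 5284 and 6445 in NHD13. For the short transcript NM_029931 the WT libraries gave 20139 and 18019 counts, and those of NHD13 gave 4239 and 4706. NM_001286158 differed from NM_029931 by 3 to 10 counts per library. If reads were counted over exons, those in exons that the long and short transcripts share are counted in each. Most counts of the long transcript were then also counts of the short ones. With every transcript tested as a feature, 3.54 percent of 22352 were called by edgeR, and all 3 of Mllt3 were called lower. The log2 fold change was -1.89 ± 0.13 for NM_027326 (adjusted p 0.0109) and -2.12 ± 0.16 for each of the short transcripts (adjusted p 0.0135 by edgeR).

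Counts of the long transcript in excess of NM_029931 numbered 2010 and 1993 in WT and 1045 and 1739 in NHD13. With counting over exons, these are reads found in the long transcript alone, less any found in the start exon of the short transcript alone. Scaled to CPM the excess was 46.2 and 54.5 in the WT libraries, higher than the 30.4 and 35.5 of NHD13, without overlap. As a further feature beside all genes, of which 3.75 percent were called, the excess had a log2 fold change of -0.61 ± 0.15, with an adjusted p of 0.0904 by edgeR, and it was not called. The excess made up 9.07 and 9.96 percent of the long transcript's counts in the WT libraries. In NHD13 it made up 19.8 and 27.0 percent, above both WT libraries.

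The ratio of this excess to the counts of NM_029931 was 1.52 ± 0.21 higher in NHD13 on the log2 scale (95% interval 1.003 to 2.042). In limma across 1307 genes with at least 2 transcripts and enough counts, this change ranked 6 by p, with an unadjusted p of 0.000566 and an adjusted p of 0.115, so it was not called. Of these genes 3 were called (0.23 percent) and 9.03 percent had an unadjusted p under 0.05. A change at least as high was found in 1.53 percent of them, Mllt3 included. An exact two-sided permutation test of the percentages gave p = 0.333, the smallest that 2 against 2 libraries allow. GENCODE ends the last exons of the short transcripts 1243 bases apart while their counts were nearly equal, so the exon models behind the counts may differ from those of GENCODE, and the place of the excess reads along the transcript was not measured.

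**Figure D2:**
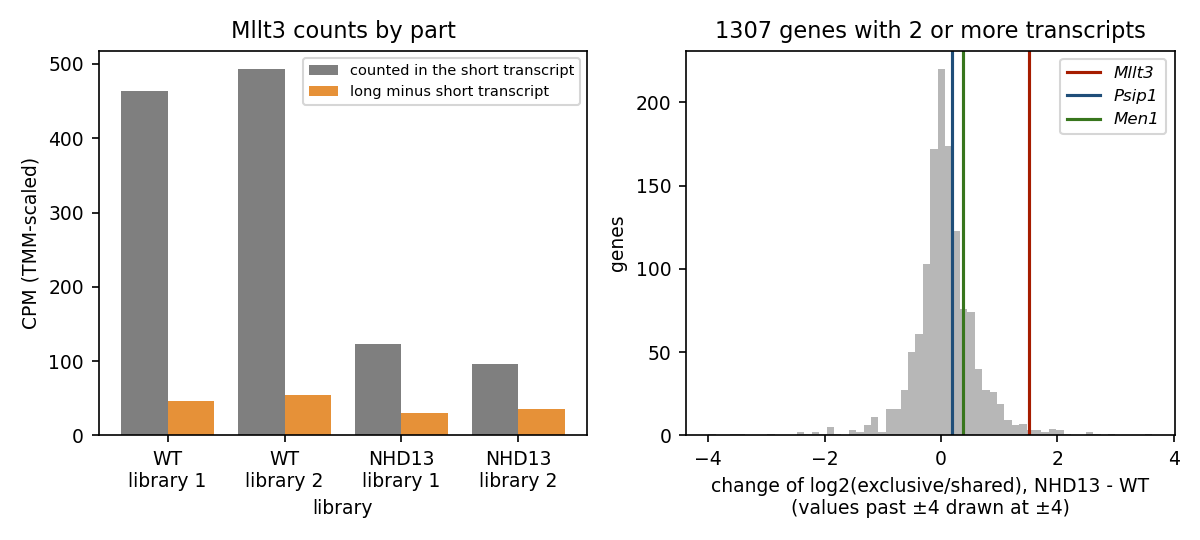
Left, CPM in each library for counts of the short Mllt3 transcript NM_029931 (grey) and for the excess of the long transcript over it (orange). Right, histogram over 1307 genes of the change, NHD13 minus WT, in log2 ratio of excess to counts of the next most counted transcript (exclusive/shared on the axis). Lines stand at Mllt3 (1.52), Men1 (0.38) and Psip1 (0.19). The grey bars fell from 463 and 493 CPM in WT to 123 and 96.0 CPM in NHD13, while the orange bars went from 46.2 and 54.5 to 30.4 and 35.5 CPM.

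Mllt3 and Mllt1 encode paralogs that occupy the same place in the Dot1l and elongation complexes. Mllt1 was at 12.7 and 13.3 CPM in WT and 17.0 and 18.1 CPM in NHD13. The groups did not overlap, and its log2 fold change of 0.43 ± 0.15 was not called (adjusted p 0.162 by edgeR, 95% interval 0.04 to 0.83). Mllt3 had 39.98 and 41.26 counts for each count of Mllt1 in WT and 9.05 and 7.27 in NHD13. On the log2 scale this ratio, which no scaling between libraries touches, was 5.34 ± 0.03 in WT and 3.02 ± 0.22 in NHD13 (SD, n = 2; exact permutation p = 0.333, the smallest possible).

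The enzyme gene Dot1l was at 23.1 and 18.0 CPM in WT and 24.1 and 20.6 CPM in NHD13. The groups overlapped, with a log2 fold change of 0.12 ± 0.19 (95% interval -0.37 to 0.60). Mllt10 (AF10), a cofactor that aids Dot1l in adding successive methyl groups, was at 54.2 and 63.4 CPM in WT and 61.8 and 56.7 CPM in NHD13. Its groups overlapped too, with a log2 fold change of 0.01 ± 0.12 (95% interval -0.31 to 0.33). All 5 Mllt10 transcripts had nearly the same counts, and 12.7 percent of the gene's exon bases overlap exons of Dnajc1 on the other strand, with which it could share reads. For Dot1l the log2 fold change was -0.05 without WT library 2, and for Mllt10 it was -0.10 without WT library 1 and -0.04 without NHD13 library 1.

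**Figure D3:**
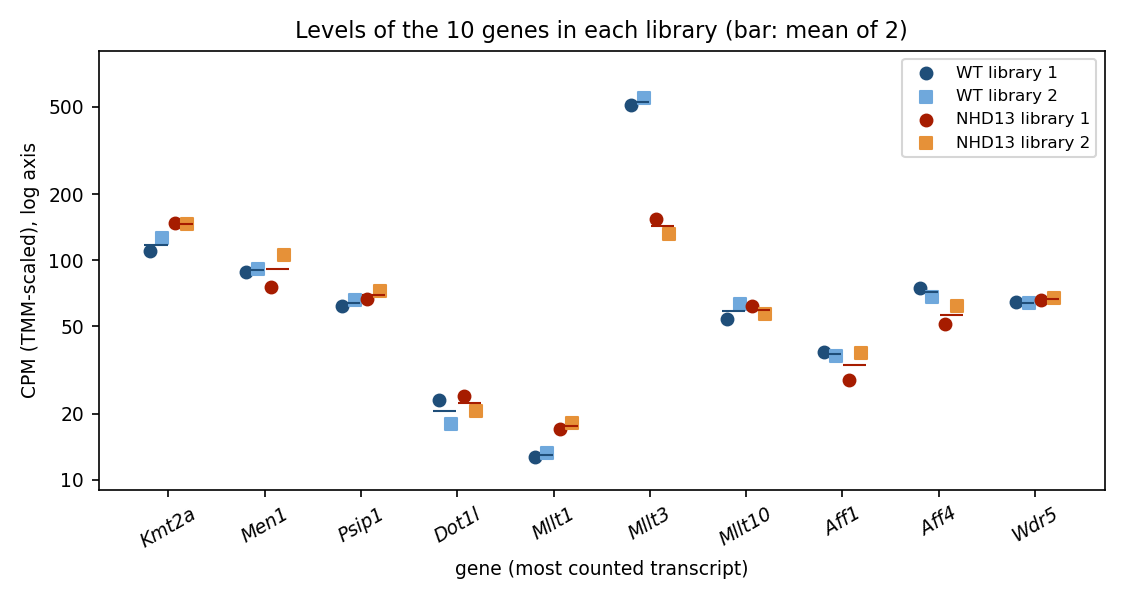
TMM-scaled CPM on a log axis of the 10 genes in each of the 4 libraries (circles: library 1, squares: library 2; short bars: group means). Mllt3 is the only gene with the groups far apart, at 509 and 548 CPM in WT against 154 and 132 CPM in NHD13.

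Among the genes of the MLL1 and menin complex, Kmt2a was at 110 and 126 CPM in WT and 148 and 146 CPM in NHD13. Both NHD13 libraries were above both WT libraries. The log2 fold change of 0.32 ± 0.11 was not called (adjusted p 0.148 by edgeR, 95% interval 0.04 to 0.59), and 2.27 percent of its exon bases overlap an antisense gene. Men1 was at 88.2 and 91.5 CPM in WT and 75.8 and 106 CPM in NHD13, so the NHD13 libraries lay on either side of WT. Its log2 fold change was 0.02 ± 0.18 (95% interval -0.44 to 0.48), and it was -0.24 without NHD13 library 2, -0.02 without WT library 1 and 0.25 without NHD13 library 1. Wdr5, a subunit shared by all MLL-type methyltransferases, had the smallest standard error of the 10 genes. It was at 64.5 and 63.9 CPM in WT and 66.0 and 67.1 CPM in NHD13. The groups did not overlap, by a small margin, and the log2 fold change was 0.05 ± 0.09 (95% interval -0.18 to 0.29).

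Psip1 encodes a long protein, p75, whose end binds menin and MLL1, and a short one, p52, that lacks this end. The transcript of 528 residues, NM_133948, was at 61.8 and 65.7 CPM in WT and 66.6 and 72.1 CPM in NHD13, without overlap, with a log2 fold change of 0.12 ± 0.10 (95% interval -0.14 to 0.38). The transcript of 331 residues, NM_001290527, was at 29.9 and 31.7 CPM in WT and 30.6 and 31.9 CPM in NHD13 (0.02 ± 0.12). The excess of the long over the short transcript made up 51.5 and 51.8 percent of the long transcript's counts in WT and 54.1 and 55.7 percent in NHD13. It is less any reads found in the short transcript alone, which has 603 exon bases of its own in GENCODE. The groups did not overlap, but the change in ratio of 0.19 ± 0.10 on the log2 scale was not called (adjusted p 0.694 by limma, 95% interval -0.05 to 0.42). In all, 9.50 percent of Psip1 exon bases overlap exons of Snapc3 on the other strand.

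The scaffold genes of the super elongation complex had negative log2 fold changes, and neither was called. Aff4 was at 74.7 and 68.2 CPM in WT and 51.3 and 61.7 CPM in NHD13. Its groups did not overlap, with a log2 fold change of -0.34 ± 0.13 (adjusted p 0.186 by edgeR, 95% interval -0.68 to -0.00033). Aff1 (AF4), the most frequent fusion partner of MLL1 in infant leukemia, was at 38.3 and 36.7 CPM in WT and 28.5 and 37.8 CPM in NHD13. Its groups overlapped, NHD13 library 1 being low, with -0.18 ± 0.17 (95% interval -0.62 to 0.27) and 0.02 without that library.

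**Figure D4:**
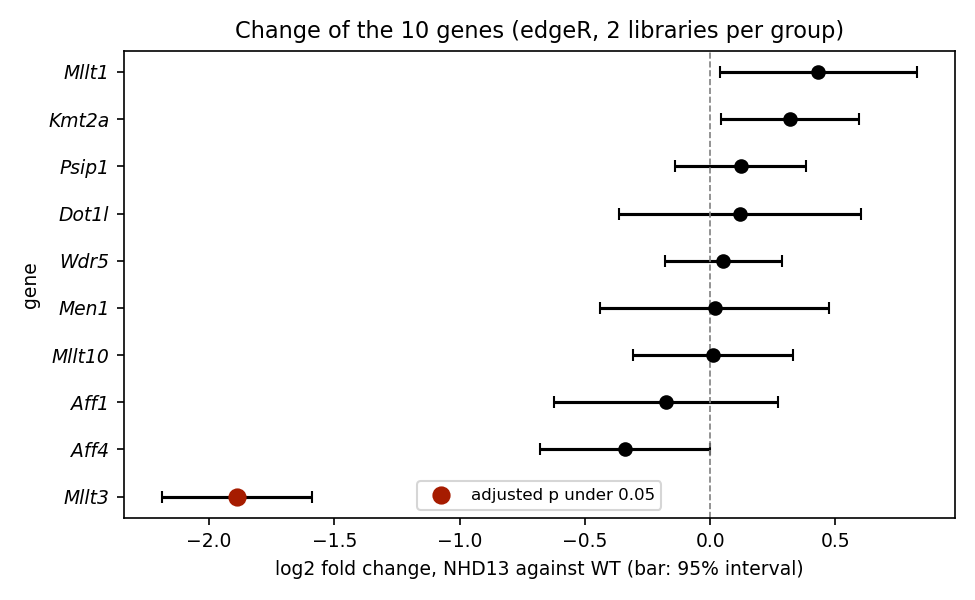
Log2 fold change of NHD13 against WT for the 10 genes with 95% intervals from edgeR, called genes in red. Mllt3 stands at -1.89, and the other 9 lie between -0.34 and 0.43.

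Of the 10 genes, 4 were higher and 2 lower in both NHD13 libraries than in both WT libraries, against 30.1 and 30.3 percent of all genes tested (60.4 percent in either direction). An unadjusted p under 0.05 was found for 4 of them, against 26.8 percent. Apart from Mllt3 these shares were near those over all genes. Per kb of mRNA, with lengths from GENCODE, Mllt3 was highest of the 10 in WT at 87.1 ± 4.48 CPM per kb, ahead of Men1 at 30.2 ± 0.790, Wdr5 at 22.2 ± 0.151 and Psip1 at 19.6 ± 0.861. In NHD13 the order of levels per kb was Men1 (30.6 ± 7.19), Mllt3 (23.5 ± 2.59), Wdr5 (23.0 ± 0.285) and Psip1 (21.3 ± 1.20), and the libraries of Mllt3 overlapped those of Wdr5 and Psip1. Dot1l was lowest in both groups, at 3.02 ± 0.529 and 3.28 ± 0.364 CPM per kb. Mllt3 counts mix transcripts of different lengths, so its level per kb is approximate.

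Other subunits of the same machinery were taken from lists of known components, chosen with earlier results of these data known. Of 17 COMPASS and MLL family subunits 1 was called, and it was higher (5.88 percent, against 4.28 percent of all genes). This was Kmt2d, which encodes the enhancer methyltransferase MLL4, at 103 and 110 CPM in WT and 162 and 156 CPM in NHD13. Its log2 fold change was 0.58 ± 0.09 with an adjusted p of 0.0461 by edgeR, and it was not called without any 1 of the 4 libraries (adjusted p 0.0661 to 0.264). The subunit list had a median log2 fold change of 0.25, with 16 of 17 values above 0, against 7446 of 14853 over all genes tested. Whether the list moved together was not tested.

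The list of super elongation complex, P-TEFb and Dot1l complex genes had 2 of 17 tested members called, in opposite directions (11.8 percent, against 4.28 percent of all genes), with a median of 0.13. Ell2, an elongation factor bound by the AFF scaffolds, fell by 1.13 ± 0.19 on the log2 scale, from 32.5 and 26.5 CPM to 12.1 and 14.8 CPM (adjusted p 0.0471 by edgeR). Eaf2, which encodes a partner of the ELL factors, rose by 1.85 ± 0.31, from 1.52 and 1.45 CPM to 5.15 and 5.55 CPM (adjusted p 0.0485 by edgeR). Both calls sat close to the threshold: with library totals as scaling the adjusted p was 0.0600 for Ell2 and 0.0561 for Eaf2, and neither was called by edgeR without any 1 library.

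Among 13 PAF1 complex genes and chromatin readers no gene reached the threshold in edgeR (0 calls, and 0 at an unadjusted p under 0.05), DESeq2 (0) or limma-voom (0). The list median was 0.17, and Cdc73 (0.39 ± 0.18) and Hdgf (0.26 ± 0.13) had the smallest p. Among 7 genes for erasers of H3K4 methylation and their cofactors DESeq2 called 3, while edgeR and limma-voom called 0. By edgeR the unadjusted p was under 0.05 for 3 of them. DESeq2 called 17.5 percent of all genes. All 7 values were above 0, against 7446 of 14853 over all genes tested, with a median of 0.27, and whether they moved together was not tested. Kdm5c, a demethylase gene, was at 80.2 and 75.9 CPM in WT and 110 and 107 CPM in NHD13 (log2 fold change 0.47 ± 0.09, adjusted p 0.0599 by edgeR), and Kdm2b had 0.36 ± 0.09 (adjusted p 0.0979).

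Of 23 tested genes listed as known targets of MLL1 and menin, 6 were called higher and 0 lower (26.1 percent, against 4.28 percent of all genes). Hoxa3, Hoxa5, Hoxa7, Hoxa9, Pbx3 and Cdk6 were already known to be called in these libraries when the list was chosen, so the direction of this list is not independent evidence. Pbx3, a partner of Hox proteins, rose from 14.6 and 13.9 CPM to 103 and 109 CPM (log2 fold change 2.90 ± 0.11, adjusted p 0.00313 by edgeR). The kinase gene Cdk6 rose from 13.8 and 12.3 CPM to 70.6 and 68.1 CPM (2.41 ± 0.13). Hoxa7 (1.49 ± 0.14) and Hoxa9 (1.28 ± 0.12) also rose. The list was not uniform: 10 of the 23 values were below 0, and the median was 0.31. Meis1, a Hox cofactor gene named here after its values were seen, was at 860.6 and 975.4 CPM in WT and at 634 and 586 CPM in NHD13, a log2 fold change of -0.59 ± 0.10 that was not called (adjusted p 0.0511 by edgeR). Hoxa10, also named after its values were seen, had -0.14 ± 0.11 and was not called. Without WT library 1 or 2 none of the 6 was called by edgeR, without NHD13 library 1 there were 3 calls in the list (1.69 percent of all genes) and without NHD13 library 2 there were 5 (6.35 percent).

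**Figure D5:**
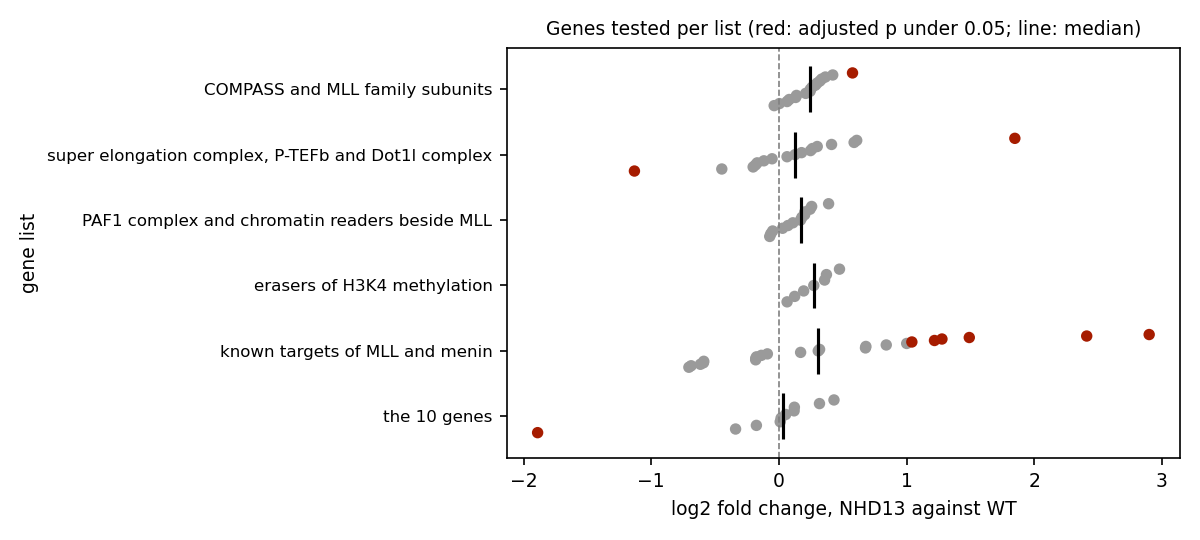
Log2 fold change of NHD13 against WT for each gene tested in the 5 lists and for the 10 genes, called genes in red and list medians as black lines. Ell2 (-1.13) and Eaf2 (1.85) stand apart from the other subunit genes, and the target list spreads from -0.70 to 2.90.

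The genes whose pattern over the 4 libraries was nearest to that of Mllt3 were found by Euclidean distance of log2 CPM centred on each gene's mean, among the 9995 genes whose mean log2 CPM was 3 or more. They were the MHC class II gene H2-Ab1 (distance 0.172), the thromboxane synthase gene Tbxas1 (0.176), the peroxidase gene Gpx7 (0.202), the BAFF receptor gene Tnfrsf13c (0.274) and Osgin1 (0.280). Tbxas1 was at 331 and 419 CPM in WT and 105 and 88.5 CPM in NHD13. With 4 libraries such a likeness describes little more than a fall of the same size.

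Library totals with 1 transcript per gene ran from 35025974 to 48423689 counts. For Hoxd13, a partner gene of the transgene, the WT libraries gave 14 and 3 counts and those of NHD13 gave 65 and 78, while Nup98 had a log2 fold change of 0.02 ± 0.08. None of the 12 stem cell markers was at 0 in all libraries. They had a summed level of 3911 to 4060 CPM in WT and of 2622 to 3019 CPM in NHD13, and 3 of the 12 were called. Markers of late granulocytes, of which 0 of 12 were called, summed to 298 to 353 CPM in WT, 3042 in NHD13 library 1 and 403 in NHD13 library 2. Markers of T and NK cells summed to 79.0 and 84.0 CPM in WT, 208 in NHD13 library 1 and 330 in NHD13 library 2, with 0 of 11 at 0 in all libraries. Only Nkg7 was called, at 18.9 and 18.0 CPM in WT and 153 and 82.2 CPM in NHD13, most of the sum of NHD13 library 1. Cd3e was at 0.713 and 0.493 CPM in WT, 0.728 in NHD13 library 1 and 36.3 in NHD13 library 2. Lck was at 15.4 and 17.1 CPM in WT, 17.5 in NHD13 library 1 and 97.3 in NHD13 library 2. Cd3g and Gzmb were also high in NHD13 library 2 alone, at 30.8 and 30.3 CPM. The list was not uniform: Cd3d, at 0.736 and 0.520 CPM in WT and 0.407 and 0.633 CPM in NHD13, overlapped between groups, as did Klrb1c. Cd4 was low in all libraries, at 2.51 and 1.81 CPM in WT and 1.37 and 1.69 CPM in NHD13, and was not called. The 10 megakaryocyte and platelet markers, of which 2 were called, had lower sums in NHD13, at 531 and 682 CPM against 1765 and 1975 CPM in WT. Most of the WT sums was 1 gene, Mmrn1, at 1227 and 1489 CPM in WT and 74.0 and 158 CPM in NHD13. The list was not uniform: Gp9 was also called lower, while Pf4 (log2 fold change 1.20) and Ppbp (1.15) were higher in NHD13 and not called. The 10 monocyte and macrophage markers (1 called) summed to 75.5 and 52.1 CPM in WT, 503 in NHD13 library 1 and 183 in library 2. Mast cell and basophil markers (2 of 9 called, with Cma1 at 0 in every library) summed to 40.8 and 28.6 CPM in WT, against 165 and 127 CPM in NHD13. The 2 called markers went against these sums: Fcer1a (log2 fold change -6.47) and Il4 (-4.79) were lower in NHD13. Most of the NHD13 sums came from uncalled markers, Ms4a2 at 111 and 4.45 CPM and Cpa3 at 21.3 and 107 CPM in NHD13 libraries 1 and 2. Mllt3 had a log2 fold change of -1.997 without NHD13 library 1 (adjusted p 0.0237 by edgeR) and -1.78 without NHD13 library 2 (0.0175). It was not called without WT library 1 (-1.95, adjusted p 0.117) or WT library 2 (-1.83, adjusted p 0.106), fits in which edgeR called 0 genes of all those tested, with 2332 and 2605 at an unadjusted p under 0.05. The part of these marker sums in the fall of Mllt3 was not tested.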

How the data were processed

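RNA was extracted with Trizol and amplified with a SMARTer low-input kit for paired-end sequencing, per the labels' protocols. Bowtie 0.12.2 and mm9 are named in the submitters' processing notes, but the program that counted reads, and whether it used strand, is not given in the sources used here. The deposited values are raw counts per RefSeq transcript, 1 table per library. Of 46 transcript pairs with the same ends (within 2 bases) and at least 300 differing exon bases in GENCODE, 0 had identical counts. Counting over exons would give this. Counts over whole transcript spans could also differ where the ends or the models differ, so the check does not settle it. Counting over exons was assumed in reading the shared and excess counts.

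The members and gene lists were chosen with earlier results of these data known. Each gene was represented by its most counted transcript and tested with edgeR 4.0.16 (R 4.3.3): default filter, TMM scaling, quasi-likelihood test with robust settings (NHD13 against WT), Benjamini-Hochberg adjustment over all genes, called under 0.05. CPM are TMM-scaled, and SE is the log2 fold change over the square root of F. The ratio of excess to the counts of the next most counted transcript (at least 40 of each, pseudocount 0.5) was tested with limma 3.58.1. This test was chosen after the transcript counts were seen. Both tests were run on simulated data. By plan, named genes were all 10 members and up to 4 called genes of each list, or the 2 with the smallest p where none was called. The 5 genes nearest to Mllt3 and the transgene's partner genes were named too. Of the 6 called targets, log2 fold changes are given for the 4 with the smallest p. Meis1, Hoxa10 and the single marker genes other than Cma1 were named beyond this plan, after their values were seen. Alternatives were other scalings and filters, limma-voom, DESeq2 1.42.0, a fit without robust settings, summed or separate transcripts, a replicate block, other thresholds and leaving out each library. Exon models, lengths and coordinates are from GENCODE M21 (GRCm38), matched by RefSeq accession for 21 of 21 transcripts, and promoter windows were found for 9 of the 10 genes.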

Additional observations from a re-analysis of the deposited data

How the results depend on the processing

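With 2 libraries per group, a fit without 1 library takes its spread from the group that keeps a pair, and the lone library is assumed to vary like it. The count of the 10 genes called was 1 under every other alternative, thresholds of 0.10 and 0.01 included, and 0 to 1 over the fits without 1 library. The calls in the COMPASS list were 0 in each fit without 1 library. Those in the super elongation list were 0 in each fit without 1 library and 0 with library totals as scaling. Those in the target list were 0 to 5 over the fits without 1 library, 7 with library totals and 11 by DESeq2. The log2 fold change of Mllt3 kept its direction in all 15 alternatives, from -2.04 to -1.78, and without 1 library its transcripts ranged from -1.997 to -1.767 for NM_027326, -2.31 to -1.94 for NM_029931 and -2.31 to -1.94 for NM_001286158. The excess ratio of Mllt3 ranged from 1.23 to 1.81 without 1 library. Its adjusted p by limma was 0.219 and 0.271 without a WT library and 4.54e-15 or less without an NHD13 library, where the spread came from the WT pair. Values near 0 changed sign: Men1 was -0.0029 with the replicate block, -0.0024 with the crossed block, and -0.24 to 0.25 without 1 library. Over the fits without 1 library Dot1l ranged from -0.047 to 0.31, Mllt10 from -0.10 to 0.13, Aff1 from -0.39 to 0.022 and the Psip1 transcript NM_001290527 from -0.025 to 0.077. Beyond leaving out libraries the cause of these changes was not tested.

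The labels do not say whether same-numbered libraries were paired. Deviations of same-numbered libraries from their group means correlated at -0.125 over the genes tested. With 2 libraries per group this correlation cannot show whether they were paired. With the replicate number as a block edgeR called 107 genes of all tested and 1 of the 10, Mllt3 (adjusted p 0.0359). Of the called list genes Pbx3 (0.0248) and Cdk6 (0.0332) were also called with this block, while Hoxa9 (0.0539), Hoxa7 (0.0638), Hoxa3 (0.0974), Hoxa5 (0.111), Ell2 (0.111), Kmt2d (0.112) and Eaf2 (0.126) were not. With crossed numbers, an alternative added after seeing the data, it called 647 genes and again 1 of the 10. Over all genes the 636 calls became 1138 without a filter, 1066 with at least 1 CPM in both libraries of a group, 402 with summed transcripts, 2604 by DESeq2, 0 without either WT library and 270 without NHD13 library 1 or 990 without NHD13 library 2. For the genes not called, the intervals limit what 2 libraries could show: the 95% interval of Men1 spans -0.44 to 0.48.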
